A study of Mus musculus with 4 samples.

Results

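Open chromatin was described at 8 genes that encode leukocyte integrins and selectin ligands: Itgb2, Itgam, Itgal, Itgax, Itga4, Itgb1, Selplg and Cd44. The genes were chosen by name from the 21911 protein-coding genes of the autosomes, X and Y in GENCODE release M21, and every peak that touched a gene body or the 50 kb on either side of it was taken (mouse build mm10). These windows held 277 of the 236215 peaks of replicate 1 and 96 of the 67438 peaks of replicate 2. The cells were mouse acute myeloid leukemia (AML) cells of strain C57BL/6J, a malignancy of immature myeloid blood cells, which the labels class as in vitro differentiated cells from a single donor record, with age unknown and sex not collected. There was no treatment, no normal myeloid sample and no contrasted genotype. Chromatin was assayed by DNase-seq, in which the nuclease DNase I cuts accessible DNA and sequenced fragment ends pile up there. Both biological replicates had 2 libraries that were pooled before sites were called, so each replicate has 1 peak list, each value below is a single value without replicate error, and no test between groups exists.

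Integrins are surface receptors made of an α and a β chain that bind ligands on other cells or in the matrix once signals inside the cell switch them to an active shape. Leukocytes use the β2 family, in which the Itgb2 chain pairs with Itgal, Itgam or Itgax, to adhere firmly to vessel walls and to take up microbes, and the pair of Itga4 with Itgb1 to hold to vascular and marrow stromal cells. Before firm adhesion the cells roll on selectins, which bind sugar-decorated carriers such as the products of Selplg and Cd44.

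All 8 genes had a promoter peak found in both replicates, where the promoter spans 1 kb either way from each annotated transcription start of the gene and a replicate 1 peak is shared when 1 bp or more of it lies in a replicate 2 peak. Among all 21911 coding genes 57.7% had a shared promoter peak, 70.5% had a replicate 1 peak there and 58.2% a replicate 2 peak. Away from the promoters of all coding genes, the windows of the 8 held a median of 8 shared peaks. The median over all coding genes was 3 (quartiles 1 and 6). The windows of the 8 were also longer, with a median of 143 kb against 117 kb. Per 100 kb of window the medians were 4.82 and 2.53. Selplg had the most, 15, and Itgax the fewest, 2. The promoters themselves were not among the strongest of the genome: by the mean over both lists of its rank by score, only the Cd44 promoter lay above the median of the 12639 genes with a shared promoter peak.

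Sequences of 4 promoter sites are shown because they hold the letters GAGGAAGT or their reverse complement ACTTCCTC, the form bound by PU.1, the ETS factor encoded by Spi1 that drives much of the myeloid programme. Each is read 5′ to 3′ in the direction of its gene, from the RefSeq GRCm38.p6 genome that carries the mm10 chromosomes, with capitals at matches to any of the 13 searched motifs. The Itgb2 stretch (chr10:77530280-77530309) lies just inside the first exon and has a CCAATCA match of the NFY type at its other end. The Itgax stretch (chr7:128133848-128133877) carries 2 of the 3 PU.1-type matches of its peak, which covers an internal coding exon end and the sequence after it. The Itgal stretch is the 150 bases before the annotated 5′ end (chr7:127296110-127296259), and the Itga4 stretch is the whole upstream promoter peak (chr2:79254756-79254905).
Itgb2 promoter: CCAATCAgccaaatgtcactcaACTTCCTC
Itgax internal promoter: cctgtaACTTCCTCttgaagcaACTTCCTC
Itgal promoter: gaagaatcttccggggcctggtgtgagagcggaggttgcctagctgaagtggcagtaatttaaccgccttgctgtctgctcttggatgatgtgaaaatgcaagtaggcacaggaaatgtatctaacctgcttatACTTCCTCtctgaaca
Itga4 promoter: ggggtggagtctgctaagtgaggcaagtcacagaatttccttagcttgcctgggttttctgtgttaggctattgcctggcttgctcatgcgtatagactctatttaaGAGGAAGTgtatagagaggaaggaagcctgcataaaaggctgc

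The next 7 sequences, each 150 bases long, are shared peaks outside promoters. They are among the 3 highest ranked of a window and touch no untranslated region. They are not all such peaks and do not stand for the rest. All 7 hold motif matches, whereas others of that rank hold none. Among those without a match are the Itgb2 window peaks at +6679 and −20441 bp, that of Itgax at +50704 bp and that of Itgb1 at +23797 bp. The first 3 lie around Itgam, at −37049 bp (chr7:128025516-128025665), at +3131 bp in an intron (chr7:128065696-128065845) and at +26731 bp in an intron (chr7:128089296-128089445) from its 5′ end. The other four are an intron peak of Itga4 at +10405 bp (chr2:79265756-79265905), the peak at +27133 bp beyond Selplg (chr5:113805436-113805585) and the Cd44 peaks at −42566 bp (chr2:102944156-102944305) and −47026 bp (chr2:102948616-102948765). Capitals again mark the motif matches.
Itgam upstream: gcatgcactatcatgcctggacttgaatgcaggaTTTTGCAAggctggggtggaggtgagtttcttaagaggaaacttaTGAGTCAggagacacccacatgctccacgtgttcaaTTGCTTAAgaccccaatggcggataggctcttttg
Itgam intron: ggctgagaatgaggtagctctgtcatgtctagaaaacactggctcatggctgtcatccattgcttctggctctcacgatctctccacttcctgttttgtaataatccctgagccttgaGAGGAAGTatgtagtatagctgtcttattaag
Itgam distal intron: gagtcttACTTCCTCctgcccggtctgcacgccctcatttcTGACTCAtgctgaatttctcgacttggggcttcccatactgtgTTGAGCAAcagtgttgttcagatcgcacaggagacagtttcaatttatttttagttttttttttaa
Itga4 intron: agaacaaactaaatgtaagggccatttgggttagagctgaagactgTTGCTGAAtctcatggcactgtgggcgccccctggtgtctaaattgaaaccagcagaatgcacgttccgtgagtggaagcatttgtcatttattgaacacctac
Selplg downstream: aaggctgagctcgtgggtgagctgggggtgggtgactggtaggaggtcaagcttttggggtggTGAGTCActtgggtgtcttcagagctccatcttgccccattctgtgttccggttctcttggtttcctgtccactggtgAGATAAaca
Cd44 upstream A: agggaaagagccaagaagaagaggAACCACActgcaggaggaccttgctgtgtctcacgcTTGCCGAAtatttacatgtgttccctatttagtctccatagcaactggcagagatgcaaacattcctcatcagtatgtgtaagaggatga
Cd44 upstream B: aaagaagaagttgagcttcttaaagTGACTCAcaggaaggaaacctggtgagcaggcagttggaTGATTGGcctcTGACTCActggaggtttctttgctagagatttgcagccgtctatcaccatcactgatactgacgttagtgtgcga

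Replicate 1 had between 13 and 50 peaks in a window and replicate 2 between 4 and 22. Hotspots are the accessible regions of varied width in the deposit, some narrower than a peak. They covered between 6.59 kb (Itgb1) and 22.2 kb (Selplg) of a window in replicate 1. In replicate 2 they covered between 1.10 kb (Itgax) and 6.27 kb (Selplg). Scores have no stated scale, so a score is read against its own list, where the median peak scored 74 in replicate 1 and 35 in replicate 2. The labelled cell type was set against markers: 7 of 8 myeloid genes (Spi1 and Cebpa among them) and 5 of 6 progenitor genes had a shared promoter peak, with Elane and Cd34 found in replicate 1 alone. The counts were 2 of 4 for B cell, 1 of 5 for T cell, 2 of 4 for erythroid, 2 of 4 for megakaryocyte and 2 of 6 for non-blood genes. All these counts are to be read against the 57.7% of all coding genes. Lymphoid genes with a shared promoter peak were Cd3d (150 and 72), Ebf1 (134 and 52) and Pax5 (129 and 59). Of the myeloid genes, Spi1 scored 150 and 94 and Mpo 126 and 41. The part of other cells in the results below was not tested.

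The β2 integrin genes come first. Itgb2 encodes CD18, the β chain without which none of the leukocyte β2 receptors reaches the cell surface, and lies on chromosome 10 at 77530252 to 77565708, on the plus strand. Its promoter peak at +39 bp from the 5′ end scored 142 in replicate 1 and 61 in replicate 2, a mean rank of 88.3, where the rank is the percent of peaks in the same list with a lower score (ties counted at the middle) and the mean is over both lists. The hotspot around it was at the ceiling of the deposited −log10 q value, 100, in replicate 1 and at 5 in replicate 2. The strongest site outside promoters in the window lay inside the gene, over an exon at +20879 bp (chr10:77551056-77551205), with scores of 148 and 97. That site scored higher than the Itgb2 promoter in both lists. A second internal site, in an intron at +6679 bp, scored 149 and 59, and the next by rank lay in an intron of the neighbour Fam207a at −20441 bp, with 114 and 57. Of the 47 replicate 1 peaks of the window 15 were shared, 9 of them outside promoters.

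Promoters of 4 annotated neighbours fall in the Itgb2 window, and all 4 had shared peaks with higher scores than the Itgb2 promoter in both lists. Fam207a scored 147 and 91, Pttg1ip 147 and 96, and Sumo3 together with the overlapping model Gm49325 148 and 87. Since a peak cannot be assigned to a gene from these files, the counts describe the windows and not regulatory links.

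Itgam encodes CD11b, the α chain of Mac-1, a receptor for complement fragments on neutrophils and macrophages. It lies on chromosome 7 at 128062640 to 128118491, on the plus strand, and the coding model Gm49368 overlaps it and has its promoter at the same peaks. Itgam had the weakest promoter of the 8 genes. The peak at +31 bp scored 138 and 38, and the one at +891 bp 140 and 40, a mean rank of 76.4, percentile 17.7 of the genes with a shared promoter peak. In replicate 2 the hotspots at both peaks had −log10 q values of 3.10 and 4.54. Outside promoters the window held 8 shared peaks, which is percentile 86.8 of coding genes. The strongest were at −11669 bp (144 and 48), at +3131 bp in an intron (138 and 50) and at −37049 bp (141 and 45). In replicate 2 each of these 3 scored higher than both promoter peaks of Itgam.

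Itgal encodes CD11a, the α chain of LFA-1, which binds ICAM proteins on other cells. It lies on chromosome 7 at 127296260 to 127335138, on the plus strand. Its strongest promoter peak, at +51 bp, scored 143 and 58. Weaker shared peaks lay at +1031 bp (126 and 42) and at +12831 bp (87 and 40), each within 1 kb of an internal annotated start. Of the 13 shared peaks in its window, 5 were at promoters of other genes. Those neighbours outscored Itgal: Dctpp1 had 150 and 92, Zfp768 147 and 91, Sephs2 146 and 93, and Zfp747 147 and 75. The highest shared peak outside promoters lay over an exon of the zinc finger gene Zfp771 at −41969 bp (148 and 83), followed by the sites between genes at −17749 bp (131 and 43) and −25769 bp (141 and 35). None of the 5 shared peaks outside promoters lay in an intron of Itgal.

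Itgax encodes CD11c, an α chain high on dendritic cells and some macrophages, and lies downstream of Itgam on chromosome 7 at 128129547 to 128150657, on the plus strand. The peak at its annotated 5′ end, at −56 bp, was weak (135 and 32). A stronger peak lay inside the gene at +4264 bp (146 and 66), which counts as a promoter peak only because it lies at −995 bp from an internal annotated start. With that peak the gene came second of the 8 by rank, after Cd44, and with the 5′ end peak alone its mean rank would be 67.6, below that of Itgam. The internal peak holds 3 PU.1-type matches and a C/EBP match. Around them the window was sparse, with 4 shared of 24 replicate 1 peaks and 2 shared peaks outside promoters. One of the pair lies in an intron of Itgad at +50704 bp (131 and 39). The other is the Itgam intron peak at −40176 bp (128 and 33), which is the site at +26731 bp of Itgam. The windows of Itgam and Itgax overlap and have 3 shared peaks and 13 peaks of replicate 1 alone in common. Itgad, the next β2 α chain gene of this cluster, had no promoter peak in either list.

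**Figure D1:**
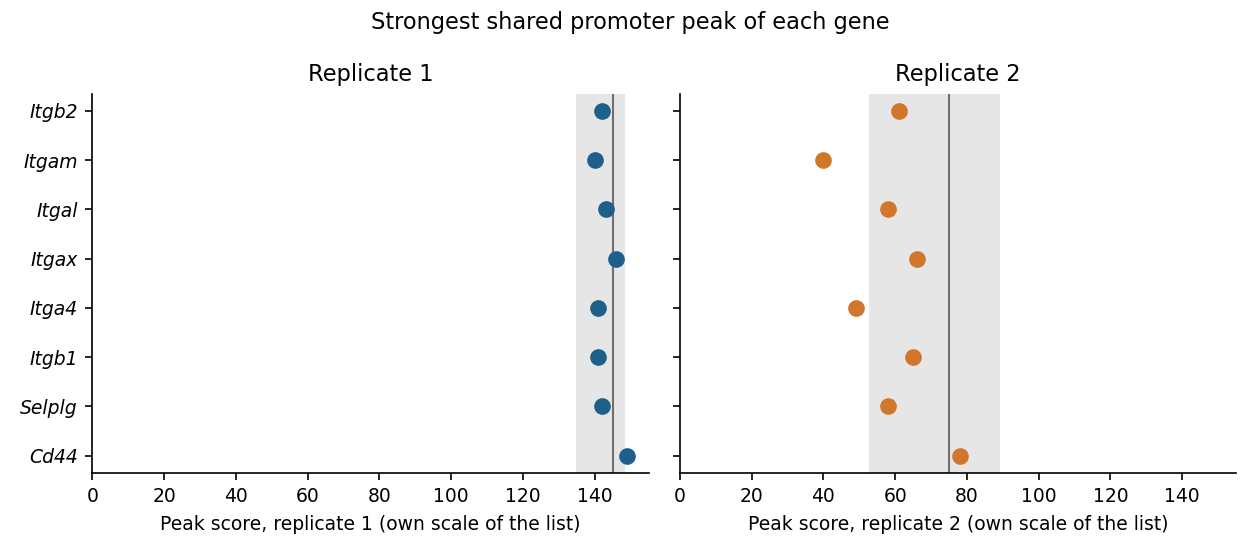
Score of the strongest shared promoter peak of each gene (points) in replicate 1 (left) and replicate 2 (right), on the deposited scale of each list. The grey band spans the quartiles and the line the median of the 12639 coding genes with a shared promoter peak (135, 145 and 148 in replicate 1, 53, 75 and 89 in replicate 2). Itgam and Itga4 lie below the band in replicate 2, with 40 and 49, and Cd44 alone lies above the median in both.

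The partners of the β1 class differed from each other. Itga4 encodes CD49d, the α chain of the VLA-4 receptor for VCAM1 and fibronectin, and lies on chromosome 2 at 79255426 to 79333123, on the plus strand. Its promoter peaks at +85 bp (141 and 49) and −595 bp (140 and 40) stood in 1 hotspot of 2203 bp in replicate 1 and 1728 bp in replicate 2, both at the ceiling. The gene had 11 shared of 27 replicate 1 peaks, a share of 40.7%. Of its 8 shared peaks outside promoters, the intron site at +10405 bp led by rank (115 and 48), ahead of those at −27375 bp (140 and 25) and, inside the neighbour Cerkl, at +117185 bp (111 and 27). The intron site scored nearly as high as the promoter in replicate 2 and lower than it in replicate 1. The promoter of Cerkl scored 136 and 37.

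Itgb1 encodes CD29, the β chain that pairs with Itga4 and many other α chains in most cell types, and lies on chromosome 8 at 128685654 to 128733200, on the plus strand. Its window was the poorest in replicate 1, with 13 peaks, fewer than in most coding genes (percentile 29.3). Its promoter peak at +57 bp scored 141 and 65, in a hotspot of 1697 bp in replicate 1 and 1415 bp in replicate 2, both at the ceiling. In replicate 1 that score was the same as that of Itga4, and in replicate 2 it was higher. A second promoter peak lay at +677 bp (125 and 33). Outside promoters 3 shared peaks remained, at +23797 bp in an intron (104 and 42), −30703 bp (136 and 27) and −4883 bp (83 and 16). No promoter of another coding gene falls in its window.

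Of the selectin ligand genes, Selplg had the densest surroundings of the 8 and Cd44 the strongest promoter. Selplg encodes PSGL-1, the mucin-like protein through which leukocytes roll on P-selectin, and lies on chromosome 5 at 113818536 to 113832644, on the minus strand. Neither list had a peak within 1 kb of its annotated 5′ end. Its promoter peak lay at +2153 bp, 10 bp from another annotated start at +2143 bp, and scored 142 and 58. Its window had the most shared peaks, 20 of 49 in replicate 1, and 15 of the 20 lay outside promoters. Per 100 kb that is 13.1, percentile 99.5 of coding genes, whose median was 2.53. The strongest were at +27133 bp, beyond the 3′ end (146 and 59), at −9367 bp upstream (144 and 58) and over an exon of Iscu at +55613 bp (142 and 47). In replicate 2 the peak at −9367 bp had the same score as the promoter of the gene, 58.

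The short Selplg gene, of 14.1 kb, has close neighbours, and its 15 sites are spread among them. Introns of Coro1c, the upstream neighbour that encodes an actin-binding coronin, held 5 of the 6 intron sites, and none lay in an intron of Selplg itself. The shared promoter peaks of other genes in the window were those of Iscu and Sart3, which have peaks in common (the strongest by rank with 145 and 94), and of Tmem119 (132 and 46), a gene known as a microglial marker. At internal starts of Coro1c there were peaks of replicate 1 alone, with scores of 77, 81 and 82. Between Tmem119 and Selplg, the lists had 6 peaks in common at +16713 to +28293 bp, with replicate 1 scores from 104 to 146.

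Cd44 encodes the receptor for the matrix sugar hyaluronan, which can also carry the sugars that E-selectin binds, and is used as a marker of leukemic stem cells. It lies on chromosome 2 at 102811141 to 102901665, on the minus strand. Its promoter peak at +174 bp, 4 bp from an annotated start, scored 149 and 78, the highest of the 8 genes in both lists, and its mean rank of 94.8 was at percentile 61.1 of the genes with a shared promoter peak. Upstream, 2 sites between genes came close to it: −42566 bp with 150 and 75, and −47026 bp with 149 and 55. In replicate 1 they stood in hotspots of 1807 and 1715 bp, both at the ceiling. An intron site at +2314 bp scored 138 and 39. The window held 50 replicate 1 peaks and 11 were shared (22%), against 40.8% for Selplg. No peak of the window lay at a promoter of another coding gene.

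**Figure D2:**
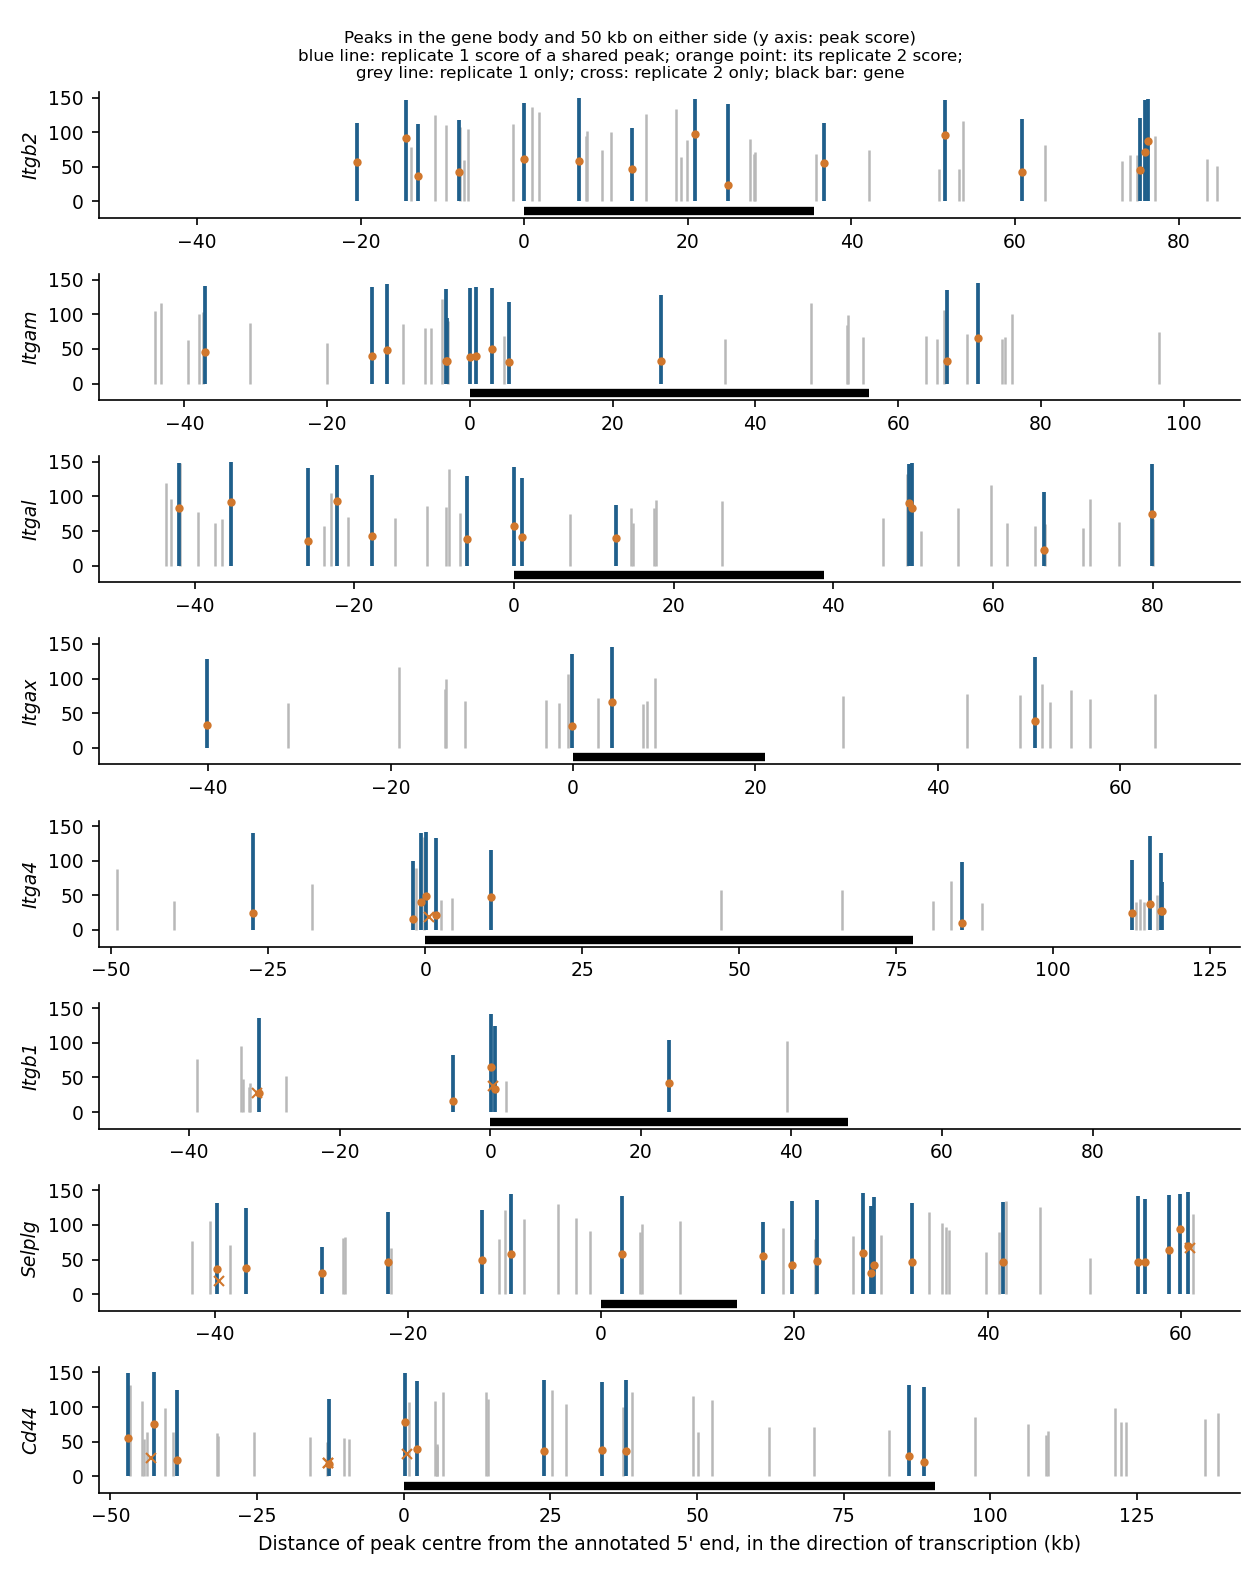
Peaks in the window of each gene by distance of the peak centre from the annotated 5′ end in the direction of transcription (kb); height is the deposited score. Blue lines are replicate 1 scores of shared peaks and orange points their replicate 2 scores, grey lines are peaks of replicate 1 alone, crosses are peaks of replicate 2 alone and black bars are the genes. Selplg has 20 blue lines on both sides of a short gene, Itgax has 4, and the Cd44 sites near −42566 and −47026 bp are as tall as its promoter.

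By mean promoter rank the order was Cd44 (94.8), Itgax (90.9), Itgb1 (89.2), Itgb2 (88.3), Itgal (87.5), Selplg (87.2), Itga4 (82.8) and Itgam (76.4). The values carry no error, so no pair of neighbours in this order can be said to differ, and replicate 1 alone kept all of them between 140 and 149. In replicate 2 they spread from 40 to 78. By shared peaks outside promoters per 100 kb the order was Selplg (13.1), Itgb2 (6.64), Cd44 (5.25), Itgam (5.13), Itga4 (4.50), Itgal (3.60), Itgb1 (2.03) and Itgax (1.65). Of the 8 genes 6 lay above the median of all coding genes, 2.53.

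**Figure D3:**
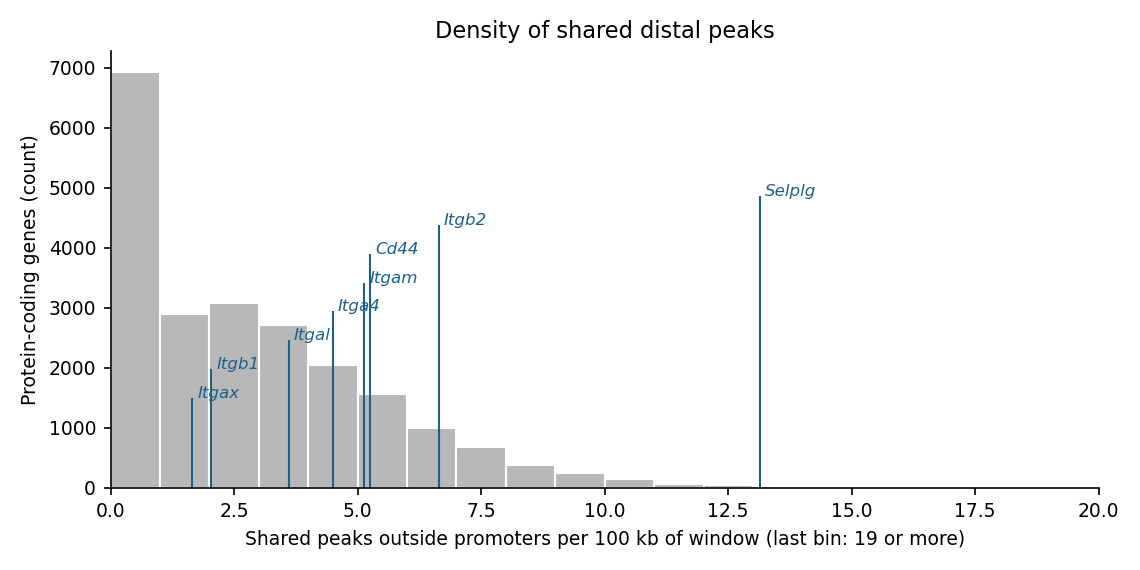
Shared peaks outside promoters per 100 kb of window (x axis) for all 21911 coding genes (grey bars, count of genes) and for the 8 genes (labelled blue lines, whose heights only separate the labels). Selplg at 13.1 lies in the thin right tail, Itgb1 and Itgax at 2.03 and 1.65 below the median of 2.53.

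With each peak counted once, the 8 windows held 88 replicate 1 peaks that overlapped a replicate 2 peak, 189 of replicate 1 alone and 9 of replicate 2 alone. Of the 88, 14 were at promoters of the 8 genes, 15 at promoters of other coding genes, 5 over exons, 26 in introns and 28 between genes. The 88 overlapped 87 replicate 2 peaks, since peaks of 1 list can overlap each other and the same partner. The 9 peaks of replicate 2 alone all overlapped a replicate 1 hotspot, with 3 of them at promoters of Cd44, Itga4 and Itgb1. The strongest of the 9, with a score of 67, lay at the promoter of Iscu and Sart3. The share of such peaks in a replicate 1 hotspot over the whole list is not given here. The overlap of the 9 therefore cannot be called particular to these windows.

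**Figure D4:**
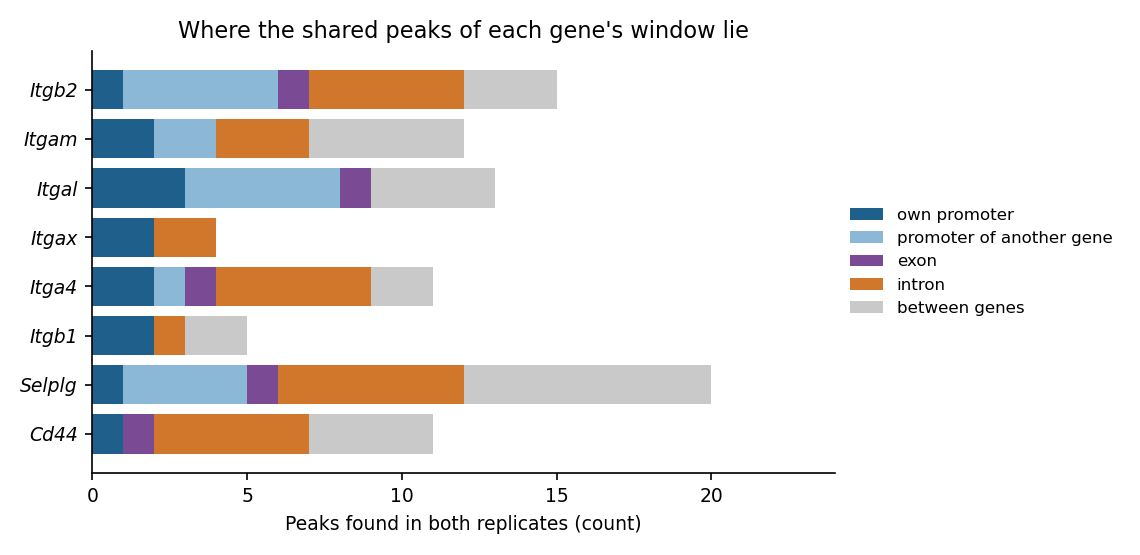
Number of peaks found in both replicates in the window of each gene (x axis), split by place. Itgb2 and Itgal have 5 each at promoters of other genes, Cd44, Itgb1 and Itgax have none, and Selplg has 8 between genes.

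The share of replicate 1 peaks that recurred in replicate 2 was 31.8% in the windows (88 of 277, 95% Wilson interval 26.6 to 37.5%), against 26.1% over the whole list, and 90.6% of the replicate 2 peaks recurred in replicate 1, against 91.9%. The intervals cover counting error only, and peaks are not independent replicates. Set against peaks of like score the order turned. Of peaks scored 80 to 99, 10.9% were shared in the windows (5 of 46, 4.73 to 23.0%) and 23.3% in the list. At scores of 100 to 119 it was 30.6% (15 of 49, 19.5 to 44.5%) against 47.8%, and at 120 to 139 it was 62.5% (30 of 48, 48.4 to 74.8%) against 76.9%. From 140 up, 36 of 37 were shared (97.3%, 86.2 to 99.5%), against 95.9%. For peaks outside promoters alone the interval held the list's share at 100 to 119 (34.9%, 22.4 to 49.8%, against 46.9%) and missed it narrowly at 120 to 139 (60.5%, 44.7 to 74.4%, against 75.0%).

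**Figure D5:**
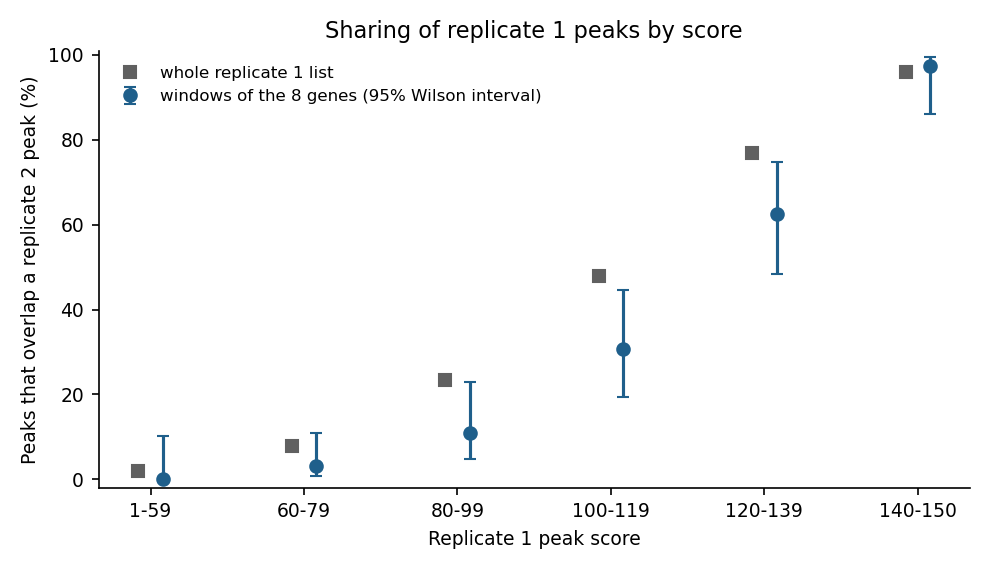
Percent of replicate 1 peaks that overlap a replicate 2 peak (y axis) by replicate 1 score (x axis), in the windows of the 8 genes (blue points, bars are 95% Wilson intervals for counting error) and in the whole list (grey squares). The blue points lie below the squares in every bin up to 139, by the most at 100 to 119 (30.6 against 47.8%), and the top bin has 97.3 and 95.9%.

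The promoters were mostly poor in CpG dinucleotides, the base pair steps that cluster in the promoters of broadly active genes. Over 1 kb around the promoter peak nearest a start, the ratio of observed to expected CpG was 0.205 at Itgam, 0.235 at Selplg, 0.238 at Itgax, 0.263 at Itgb2, 0.300 at Itgal, 0.357 at Cd44 and 0.466 at Itga4. Those 7 lay below 0.476, the lower quartile of all 19643 shared promoter peaks, whose median was 0.693. Itgb1 had 0.922, percentile 89.8 of them. The 150 bases before the 5′ ends show the contrast: 16 CpG at Itgb1 (chr8:128685504-128685653) and 4 at Itgam (chr7:128062490-128062639), here with capitals at every CpG.
Itgb1 before the start: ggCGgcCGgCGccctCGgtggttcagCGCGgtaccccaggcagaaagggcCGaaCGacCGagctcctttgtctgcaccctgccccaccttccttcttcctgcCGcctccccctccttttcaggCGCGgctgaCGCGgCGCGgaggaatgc
Itgam before the start: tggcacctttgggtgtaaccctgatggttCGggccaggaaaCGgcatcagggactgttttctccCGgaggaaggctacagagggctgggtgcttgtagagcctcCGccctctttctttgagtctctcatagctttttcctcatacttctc

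Exact motif letters were sought on both strands of each deposited 150 bp window. They were GAGGAAGT (PU.1-type ETS), CCGGAAGT (generic ETS), TTGCNNAA (C/EBP), TGTGGTT (RUNX), TGANTCA (AP-1), GGGGCGGGG (KLF/SP), CCAATCA (NFY), AGATAA (the GATA factors), CAGCTG (E-box) and longer consensus letters for CTCF, the ETS-IRF composite and NF-kB. A MYB match could be TAACGG, the same with C as its opening base (CAACGG), or the form that ends otherwise (TAACTG). The PU.1-type and ETS-IRF letters have the core GGAA in common and can fall on the same bases. A match is a description of the letters and not a bound site. Of the 88 shared peaks, 37 had no match, 32 had 1 kind and 19 had more, up to 3 kinds.

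At the genes' own promoters 4 of 14 shared peaks held the PU.1-type letters (28.6%), against 3.16% of all 19643 shared promoter peaks. With promoters of other genes in the windows it was 4 of 29 (13.8%). The genes and motifs were chosen with earlier results of these data known, so these shares are descriptions only. The 4 peaks were those of Itgb2 at +39 bp, Itgal at +51 bp, Itgax at +4264 bp and Itga4 at −595 bp, the 4 promoter sequences printed above. RUNX and MYB letters each stood in 2 of the 14, in Itgam at +891 bp (both), Cd44 (RUNX) and Selplg (MYB), against 2.53% of all shared promoter peaks for RUNX and 8.78% for MYB. KLF/SP letters, present in 12.9% of all shared promoter peaks, stood only in that of Itgb1, in 2 overlapping copies. None of the 14 held letters for generic ETS, CTCF, the ETS-IRF composite, GATA, the E-box or NF-kB. In the 150 bases before the annotated 5′ ends, the PU.1-type letters stood at 1.64% of all coding genes. Of the 8, they stood at Itgal alone, from −16 to −9. For Selplg the bases before its start at +2143 bp were read instead, so that gene was not measured as in the background.

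Outside promoters the 59 shared peaks of the windows were closer to the whole list. C/EBP letters stood in 8 (13.6%, against 12.7% of 42125 shared peaks outside promoters) and PU.1-type letters in 5 (8.47% against 7.48%). AP-1 letters stood in 9 (15.3% against 8.13%), GATA letters in 6 (10.2% against 5.36%), and CTCF letters in 2 (3.39% against 8.14%). Among the 164 peaks outside promoters found in replicate 1 alone, AP-1 letters stood in 13 (7.93% against 8.70%) and C/EBP letters in 26 (15.9% against 11.8%). The Itgam intron peak at +26731 bp holds PU.1-type, AP-1 and C/EBP letters together, as its printed sequence shows. The upstream Itgam peak at −37049 bp holds 2 C/EBP matches and an AP-1 match, and the Cd44 peaks hold C/EBP and RUNX letters at −42566 bp and 2 AP-1 matches beside NFY letters at −47026 bp. Of the 5 distal PU.1-type matches, 3 lay in introns of Itgam.

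Other adhesion genes are grouped by known role, and each count is to be read against the 57.7% of all coding genes with a shared promoter peak. Of 14 genes for the switching of integrins to the active state, 11 had a shared promoter peak, led by Tln1 (150 and 99), which encodes the talin that binds β chain tails, Vcl (149 and 99), which encodes vinculin, and Cyth1 (148 and 102), an exchange factor linked to β2 integrins. Fermt1, an epithelial kindlin, had none. Fermt3, the blood cell kindlin, chosen here after its values were seen, scored 142 and 57. Of 10 integrin ligand genes 8 had one, led by Icam1 (147 and 71), Icam4 (137 and 68) and Icam5 (140 and 54), which lie next to each other.

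Among the other integrin chains, 8 of 14 α genes had a shared promoter peak, led by Itga2b (146 and 87), the platelet chain, Itgav (144 and 59) and Itga5 (138 and 61), a fibronectin receptor chain. Itga11, Itgad and Itgae had none in either list. Of 7 other β genes 3 had one, Itgb5 (148 and 54), Itgb3 (126 and 38) and Itgb4 (102 and 21), and the other four, Itgb2l, Itgb6, Itgb7 and Itgb8, had a peak in replicate 1 alone. Itgb7, which also pairs with Itga4, is among those. With the 6 integrin genes described above, 17 of 27 chains had a shared promoter peak, a share near that of all coding genes.

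Of 16 genes for the sugars, sulfates and transporters that make a selectin ligand, 13 had a shared promoter peak. They were led by B4galt1 (150 and 113), a galactosyltransferase, Tpst2 (149 and 108), which sulfates tyrosines such as those of PSGL-1, and C1galt1 (149 and 87), which extends mucin-type sugars. Each of the 3 scored higher than the Selplg promoter in both lists, and C1galt1 equalled Cd44 in replicate 1. Fut7, the fucosyltransferase that completes selectin-binding sugars in leukocytes and was singled out after its values were seen, scored 145 and 75. Of 8 other carriers 4 had one, led by Cd24a (138 and 65), Madcam1 (115 and 56) and Spn (138 and 38), the leukocyte mucin CD43, while Emcn and Glycam1 had none. Glg1, which encodes a carrier for E-selectin, had strong promoter peaks in both lists (148 and 86) that did not overlap and so were not counted as shared. Of the vascular selectins, Selp had a promoter peak in replicate 1 alone, and Sele, made by activated endothelium, had none.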

How the data were processed

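The 8 genes, the adhesion lists and the motifs were chosen with earlier results of these data known. Per the labels, the authors mapped to mm10 and deposited 1 peak list and 1 hotspot list per biological replicate, each from 2 pooled libraries. Neither the peak caller nor the number of reads is given in the sources, and the depth is therefore unknown. The deposited peak score is a whole number per 150 bp window, used to rank peaks within a list. The deposited hotspots carry a −log10 q value with a ceiling of 100. Repeated peaks (48 in replicate 1, 5 in replicate 2) were kept once, and the autosomes, X and Y were used. A shared peak is a replicate 1 peak that overlaps a replicate 2 peak by 1 bp or more. Promoters are within 1 kb of any annotated start (GENCODE M21), and distal peaks are outside all coding promoters. Places were taken as own promoter, other promoter, exon, intron, then between genes. Named genes are the 8 members; in each adhesion list the 3 with the highest mean promoter rank and the first 3 by alphabet without a peak; neighbours with a promoter in a window; and per gene the best promoter peak and 3 best distal peaks. Alternatives varied the promoter and gene windows, the overlap, the score threshold and the lists used. Functions were tested on simulated data. Work was done in Python 3.11.15 with pandas 2.3.3 and numpy 2.4.6. No test was made, since there is 1 list per replicate and no contrast.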

Additional observations from a re-analysis of the deposited data

How the results depend on the processing

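All 8 genes kept a shared promoter peak with a 500 bp promoter window, a stricter overlap, a score threshold and lists of equal length. The shares of all coding genes were then 55.6%, 55.6%, 50.9% and 54.4%. With the annotated 5′ end only, 7 did, as Selplg had none, against 52.7%. A promoter window of 2.5 kb (8, against 61.4%) could only keep a shared peak. With 1 list alone no peak is shared. All 8 had a promoter peak in replicate 1 (70.5% of coding genes), which their shared peaks entail, and in replicate 2 (58.2%). The median of 8 shared distal peaks became 3.5 with only the peaks above the median score of each list, 4 with windows of 10 kb and 1.5 with the gene body only. The same medians over all coding genes were then 1, 1 and 0. With 1 list alone the counts are of all distal peaks of that list and not of shared ones. Their median was 31.5 in replicate 1 and 7 in replicate 2, against 15 and 3 over all coding genes. The share of replicate 1 peaks that were shared rose from 31.8% to 61.83% with lists of equal length. No share over the whole list is given under that setting, so 61.83% cannot be placed above or below it. The 88 shared peaks became 42 with 10 kb, 144 with 100 kb and 29 with the gene body only. With 1 list alone the count is of all peaks in the windows, 277 in replicate 1 and 96 in replicate 2, and not of shared peaks. These settings changed the window width, the length of the lists or the lists used, and the cause of the moves was not tested. The other 23 values stayed within 1.5 times or within the counting interval. No paired analysis was possible because no test was made. Single scores have no error, the depth is unknown, and replicate 1 has the longer lists, so a peak missing from replicate 2 does not show a closed site.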

Other observations

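Of the 189 replicate 1 peaks of the windows without a replicate 2 partner, 6 overlapped a replicate 2 hotspot. All 189 overlapped a replicate 1 hotspot. Shares over the whole list are not given here. They had a median score of 79, against 136 for the 88 shared peaks. Promoter peaks of replicate 1 alone lay at Itgb2 (+919 bp, score 137), Itga4 (−215 bp, 134), Cd44 (+894 bp, 107), Itgax (−556 bp, 106) and Itgb1 (+39417 bp, 103), all in genes that also had a shared promoter peak. The last lies 738 bp from an internal start of Itgb1.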
